A study of Mus musculus with 81 samples.

Results

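Cytotoxic and immune checkpoint genes, 10 in all, were followed through mouse thymic lymphomas: the granule genes Gzma, Gzmb, Prf1 and Nkg7, the cytokine gene Ifng, and the checkpoint receptor genes Pdcd1, Ctla4, Lag3, Tigit and Havcr2. The 10 genes were taken by symbol from the 51826 genes of the deposited count table, and each symbol had 1 row. RNA was sequenced from frozen thymic tissue of 40 mice in 81 libraries. All animals were C57BL/6 x 129S4Sv/Jae and carried a Plk4 transgene at Col1a1 with rtTA and centrin-GFP at Rosa, so the controls carry these alleles too. Normal thymus came from 8 untreated p53+/+ mice and 1 untreated p53+/- mouse. The labels give no age at sampling. Lymphomas came from 10 untreated p53-/- mice (23 libraries), 9 p53-/- mice given doxycycline for 2 weeks, begun at 30 days of age, (18 libraries) and 12 p53+/- mice given the same treatment (31 libraries). Doxycycline with rtTA switches on Plk4, the kinase that starts centriole duplication, for that period. In 13 of the 31 tumours, 4 or 5 places were sampled, giving 54 libraries, and these are called multifocal below.

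Cytotoxic lymphocytes kill by releasing granules. Perforin, the product of Prf1, opens the target cell membrane, granzymes A and B (Gzma and Gzmb) are the proteases that enter, and Nkg7 is a membrane protein of the granule that takes part in its release. Interferon gamma, the product of Ifng, is secreted by the same cells. The checkpoint receptors PD-1 (Pdcd1), CTLA-4 (Ctla4), LAG-3 (Lag3), TIGIT (Tigit) and TIM-3 (Havcr2) restrain activated T cells, and several of them are present on other cells, such as TIM-3 on macrophages and dendritic cells and CTLA-4 on regulatory T cells.

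The genes lie on 8 chromosomes of GRCm38 (mm10), and all are protein coding. Gzma (ENSMUSG00000023132) is on chromosome 13 from 113093825 to 113100981, Gzmb (ENSMUSG00000015437) on chromosome 14 from 56258838 to 56262260, Prf1 (ENSMUSG00000037202) on chromosome 10 from 61297833 to 61304680 and Nkg7 (ENSMUSG00000004612) on chromosome 7 from 43437073 to 43438249. Ifng (ENSMUSG00000055170) is on chromosome 10 from 118441046 to 118445892. Of the receptors, Pdcd1 (ENSMUSG00000026285) is on chromosome 1 from 94038305 to 94052553, Ctla4 (ENSMUSG00000026011) on chromosome 1 from 60887000 to 60915832, Lag3 (ENSMUSG00000030124) on chromosome 6 from 124904361 to 124911705, Tigit (ENSMUSG00000071552) on chromosome 16 from 43648867 to 43664146 and Havcr2 (ENSMUSG00000020399) on chromosome 11 from 46454935 to 46481255. In the annotation 1 other gene overlaps Ifng (Gm49751) and 1 overlaps Ctla4 (Rpl18-ps1), each on the same strand, and none overlaps the others. Gzmb belongs to a family of similar genes, so reads that match several granzymes may have been split among them.

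The promoter letters are shown for 3 genes: Gzma, which was high in most lymphomas, Gzmb, a second granzyme, which was low in most but was not called by edgeR, and Havcr2, the receptor that was lower in each lymphoma group. Each sequence is the 250 bases before the RefSeq transcription start (table of build GRCm38.p6), 5′ to 3′ on the gene's strand. Gzma covers chr13:113100982-113101231 (minus strand), Gzmb chr14:56262335-56262584 (minus strand) and Havcr2 chr11:46454681-46454930 (plus strand). Capitals mark matches on either strand to TGTGGT (the RUNX core), TGANTCA (AP-1, which reads alike on both strands), TGACGT (the CRE core) and GGTGTG (the T-box core).
Gzma: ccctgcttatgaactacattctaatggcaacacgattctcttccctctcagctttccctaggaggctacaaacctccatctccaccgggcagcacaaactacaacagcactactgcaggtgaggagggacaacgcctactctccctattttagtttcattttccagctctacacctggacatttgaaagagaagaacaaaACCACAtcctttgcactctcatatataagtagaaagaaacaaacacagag
Gzmb: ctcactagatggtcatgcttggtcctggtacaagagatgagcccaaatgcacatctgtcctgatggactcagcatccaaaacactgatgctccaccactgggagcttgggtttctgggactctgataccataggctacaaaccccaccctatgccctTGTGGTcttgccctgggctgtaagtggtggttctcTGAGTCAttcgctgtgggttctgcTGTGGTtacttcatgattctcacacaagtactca
Havcr2: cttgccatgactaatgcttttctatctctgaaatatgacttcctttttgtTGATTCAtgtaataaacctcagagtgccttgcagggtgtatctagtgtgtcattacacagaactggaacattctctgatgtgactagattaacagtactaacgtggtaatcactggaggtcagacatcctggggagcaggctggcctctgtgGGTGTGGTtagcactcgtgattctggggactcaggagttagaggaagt

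RefSeq promoter entries matched 9 of the 10 genes. The RUNX core was present in 6 of these (Gzma, Gzmb, Prf1, Nkg7, Tigit and Havcr2), and 14% of all 32851 promoter windows of this length held it. Gzmb held it 2 times, at 93 and 34 bases before the start, with an AP-1 match (TGAGTCA) between them. In Havcr2 the RUNX core shares letters with a T-box core. AP-1 matches were found in Gzmb and Havcr2 (6.75% of all windows), T-box cores in Nkg7 and Havcr2 (16.3%) and a CRE core in Prf1 (6.47%). These are matches of letters and were not tested as binding sites.

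Library totals ran from 1030428 to 26871794 counts (median 15027194), and the 2 shallowest libraries were both from treated p53-/- mouse 857. Levels are in CPM, counts scaled to a total of 1000000 for each library or mouse. The lymphomas carried T cell markers: the summed level of 8 T cell genes was 1536 CPM or more in 30 of 31 mice. Untreated p53-/- mouse 881 stood apart with 157 CPM for T cell markers and 1932 CPM for 4 B cell markers. B cell markers summed to 362 CPM in untreated p53-/- mouse 98 and to at most 76.5 CPM in the other 29 lymphomas. Normal mouse 387 also stood apart, with 796 CPM for T cell markers against at least 4538 CPM in the other p53+/+ thymuses, and with 878 CPM for B cell markers. The labelled sex went against Xist and Y-linked genes in 3 mice. Calls of the 9 tested genes that were lost without mouse 387 or without the 3 mice are given with and without them, and none was lost without mouse 881 alone.

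**Figure D1:**
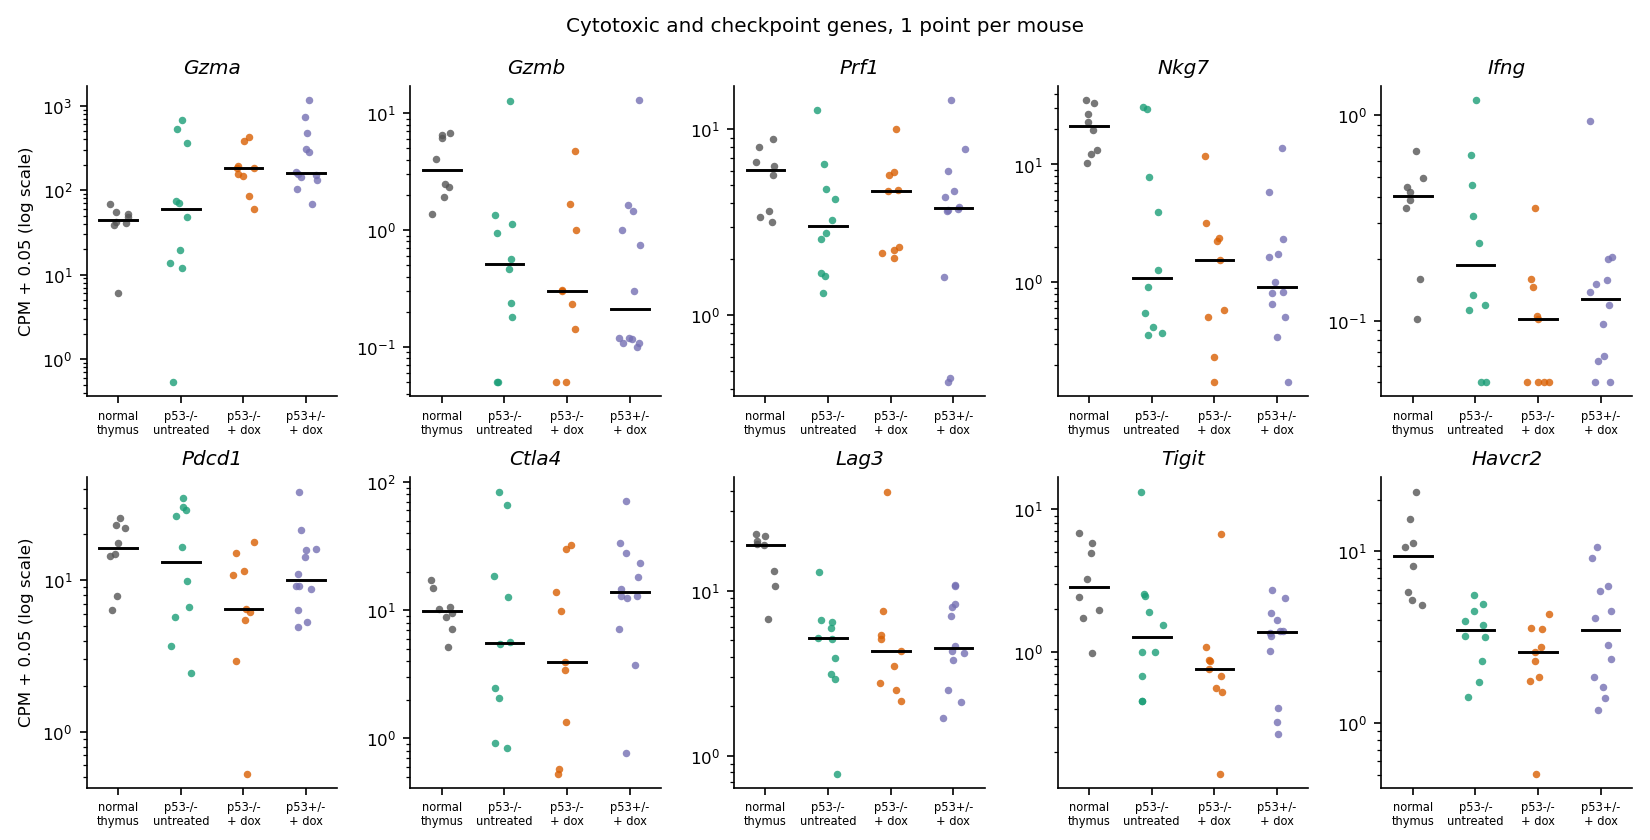
CPM + 0.05 (log scale) of the 10 genes in 8 normal p53+/+ thymuses, and in lymphomas (10 of untreated p53-/-, 9 of treated p53-/-, 12 of treated p53+/- mice), with 1 point per mouse (biopsies summed) and a bar at the median. Gzma is the gene with most lymphomas above normal thymus, while Nkg7, Gzmb, Lag3 and Havcr2 lie below it in most mice.

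Per kilobase of exon, Gzma was the most abundant of the 10 genes in normal thymus (median 44.3 CPM per kb), followed by Nkg7 (23.3), Lag3 (8.96), Pdcd1 (8.4), Ctla4 (4.18), Havcr2 (3.44), Tigit (3.03), Prf1 (2.31), Gzmb (2.23) and Ifng (0.274). Neighbours in this order overlapped from Lag3 down to Gzmb. Nkg7 lay above Lag3 and Gzmb above Ifng in every normal thymus, and Gzma overlapped Nkg7 only through normal mouse 387. In treated p53+/- lymphomas the order on the same scale was Gzma (159), Ctla4 (5.89), Pdcd1 (5.21), Lag3 (2.11), Prf1 and Tigit (both 1.45), Havcr2 (1.26), Nkg7 (0.943), Gzmb (0.112) and Ifng (0.0602). Gzma was thus above the other 9 in each mouse of that group, with its lowest mouse at 68.9 CPM per kb against at most 30.4 for any other gene. In untreated p53-/- lymphomas it ran from 0.478 to 666 CPM per kb, while Ctla4 reached 36.1 and Nkg7 33.8, and in mice 120, 202 and 881 at least 1 other gene was above it.

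Each lymphoma group was compared with normal thymus in 1 edgeR quasi-likelihood fit over 17843 genes, with labelled sex as a covariate and the mouse as the replicate. The 3 comparisons share the 8 normal thymuses. A gene was called at a Benjamini-Hochberg adjusted p under 0.05, and 9 of the 10 genes could be tested, since Ifng was too low. In untreated p53-/- lymphomas 3 of the 9 were called (1 higher, 2 lower), where 40.7% of all genes were called (23.2% upward and 17.5% downward). The treated p53-/- group had 4 calls, 1 upward and 3 downward, beside 52.1% of all genes (25.4% upward and 26.6% downward). The treated p53+/- group had 5 calls, 1 upward and 4 downward, beside 50.9% of all genes (25.6% upward and 25.3% downward). With limma voom over all biopsies, where the mouse is a correlation block, 4, 7 and 6 of the 9 were called, beside 41.9%, 50.5% and 51.6% of all genes, and with DESeq2 4, 5 and 5, beside 44%, 55.2% and 53.8%. The shares by edgeR are near the background, so the count of calls alone does not set these genes apart. With each mouse of the group above every normal thymus there were 0, 0 and 1 of the 9 (Gzma), beside 2.33%, 7.33% and 5.37% of all genes, and with each mouse below there were 0, 1 (Havcr2) and 0, beside 4.92%, 9.3% and 6.56%. The median log2 fold change of the 9 was -0.32, -1.10 and -1.11 in the same order, and that of all genes 0.08, -0.04 and 0.00. These are bulk tissues, in which fewer cells of a type and less RNA per cell cannot be told apart.

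**Figure D2:**
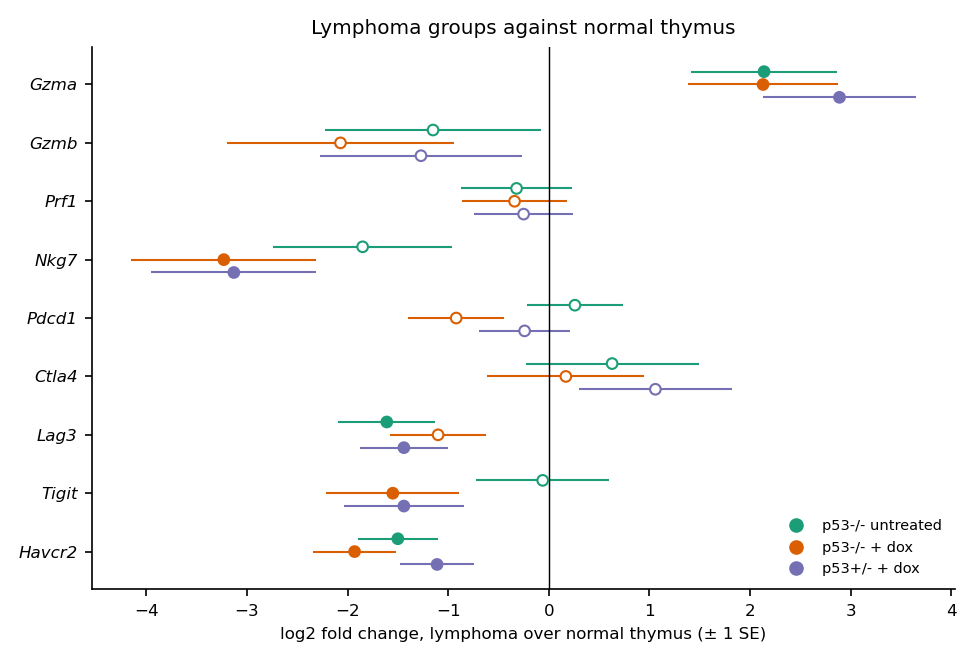
Log2 fold change of each lymphoma group over normal thymus (x axis, points with 1 SE) for the 9 genes tested, with filled points for adjusted p under 0.05 in edgeR and open points otherwise. Gzma lies to the right of 0 and Havcr2 to the left with filled points in each group, while Prf1, Pdcd1 and Ctla4 have open points throughout.

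Gzma was the gene called higher in each lymphoma group. In the 8 normal thymuses it ranged from 5.98 to 67.9 CPM (median 44.6), and 7 of them lay between 39 and 67.9. Untreated p53-/- lymphomas ranged from 0.481 to 670 CPM (median 59.2), treated p53-/- from 60.4 to 426 (median 183) and treated p53+/- from 69.3 to 1163 (median 160). Above every normal thymus were 5 of 10, 8 of 9 and 12 of 12 mice, so the treated p53+/- group did not overlap normal thymus and the untreated group spanned it. The log2 fold changes were 2.14, 2.13 and 2.89 (SE 0.73, 0.75 and 0.76, edgeR adjusted p = 0.0187, 0.0175 and 0.00176). Without normal mouse 387 the fold changes were 2.08, 2.05 and 2.81 and the calls remained (adjusted p = 0.0275, 0.0286 and 0.00378). In the untreated group the highest mice were 98 (670 CPM), 325 (526.3 CPM) and 157 (365 CPM), while mice 202, 120 and 643 held 12.1, 13.5 and 19.5 CPM and mouse 881 0.481 CPM. A limma voom fit over all biopsies, which averages on the log scale, gave 0.61 for that group (adjusted p = 0.55), and a fit of those mice and normal thymus alone gave 2.23 (adjusted p = 0.0643). For treated p53-/- lymphomas the call was lost without the mice of discordant sex (1.84, adjusted p = 0.052).

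Gzmb, the granzyme that works by cleaving caspases, had lower medians in the lymphomas than in normal thymus but was not called by edgeR over all groups. Normal thymuses held 1.32 to 6.79 CPM (median 3.2). The medians were 0.464 CPM in untreated p53-/- (range 0 to 12.6), 0.251 CPM in treated p53-/- (0 to 4.68) and 0.161 CPM in treated p53+/- lymphomas (0.0501 to 12.9). Below every normal thymus were 25 of the 31 lymphomas (28 without mouse 387, the lowest normal), and 2 lay above all of them, untreated p53-/- mouse 98 at 12.6 CPM and treated p53+/- mouse 908 at 12.9 CPM. The edgeR log2 fold changes were -1.15, -2.07 and -1.27 (SE 1.07, 1.13 and 1.0, adjusted p = 0.41, 0.121 and 0.294). With voom over all biopsies they were -3.66, -3.32 and -2.99 (adjusted p = 0.00113, 0.00256 and 0.00207). That fit also takes single biopsies, with the mouse as a block, in place of sums per mouse. The cause of the difference between the fits was not tested. Gzmb was also called in treated p53-/- lymphomas fitted with normal thymus alone (edgeR, -2.02, adjusted p = 0.0402) and in single-biopsy treated p53+/- tumours (-2.94, adjusted p = 0.0449).

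Nkg7 was called lower in both treated groups. Its level was 10.2 to 35.2 CPM (median 21.3) in normal thymus, 0.304 to 30.9 (median 1.04) in untreated p53-/-, 0.0915 to 11.8 (median 1.51) in treated p53-/- and 0.0918 to 13.7 (median 0.862) in treated p53+/- lymphomas. Below every normal thymus were 8 of 10, 8 of 9 and 11 of 12 mice (8, 9 and 11 without mouse 387), and none was above. It fell in treated p53-/- lymphomas by 3.23 on the log2 scale (SE 0.92, edgeR adjusted p = 0.00368) and in treated p53+/- lymphomas by 3.13 (SE 0.82, adjusted p = 0.00175). Untreated p53-/- lymphomas had -1.85 (SE 0.89, adjusted p = 0.0941), with mice 120 and 202 at 30.9 and 29.7 CPM inside the normal range. DESeq2 and voom did call that group (-1.87, adjusted p = 0.0499, and -3.48, adjusted p = 6.88e-05). In 23 of the 31 lymphomas Gzma was above and Nkg7 below every normal thymus.

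Prf1 was called in none of the 3 groups, and its normal range of 3.13 to 8.87 CPM overlapped all of them. The group medians were 2.97, 4.64 and 3.74 CPM against 5.96 in normal thymus, and the log2 fold changes were -0.32, -0.34 and -0.25 (SE 0.55, 0.52 and 0.49, edgeR adjusted p = 0.676, 0.602 and 0.693). Of the 31 lymphomas 3 lay above every normal thymus and 12 below (5, 4 and 3 by group). The highest mice were 908 (14.3 CPM) and 643 (12.6 CPM), and the lowest were 884 and 24 (0.387 and 0.412 CPM), although mouse 884 had the highest Gzma of all at 1163 CPM.

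Ifng was near the limit of detection. It ranged from 0.0516 to 0.618 CPM (median 0.354) in normal thymus, and its medians were 0.136, 0.0512 and 0.078 CPM in the 3 lymphoma groups. Above every normal thymus were mice 98 (1.14 CPM) and 908 (0.892 CPM), the mice with the highest Gzmb. The limit that a count of 0 allows (3 counts, counting error only) was 0.0304 to 0.599 CPM in these mice, so Ifng differences of that size were not detectable.

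Havcr2 was called lower in each lymphoma group. Normal thymuses ranged from 4.82 to 22.2 CPM (median 9.35), untreated p53-/- lymphomas from 1.38 to 5.53 (median 3.43), treated p53-/- from 0.458 to 4.27 (median 2.54) and treated p53+/- from 1.14 to 10.6 (median 3.43). The treated p53-/- group lay wholly below normal thymus, as did 8 of 10 untreated p53-/- mice (9 without mouse 387) and 8 of 12 treated p53+/- mice. The log2 fold changes were -1.5, -1.93 and -1.11 (SE 0.40, 0.41 and 0.37, edgeR adjusted p = 0.00303, 0.000166 and 0.0116). It was called under each of the 14 alternatives in each group. Its highest lymphoma, mouse 266 at 10.6 CPM, also had the highest summed macrophage markers of the lymphomas (1901 CPM against a median of 813). The next highest sums were 1569, 1287 and 1284 CPM in mice 25, 908 and 659, which held 6.21, 9.16 and 2.54 CPM of Havcr2. The part of macrophages in the Havcr2 level was not tested.

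Lag3 was 6.68 to 22 CPM in normal thymus (median 18.9). The medians were 5.1 CPM (range 0.735 to 12.9), 4.26 CPM (2.11 to 39.5) and 4.45 CPM (1.65 to 10.8) in the 3 lymphoma groups, with 9 of 10, 7 of 9 and 7 of 12 mice below every normal thymus. It fell by 1.61 in untreated p53-/- (SE 0.48, edgeR adjusted p = 0.00664) and by 1.44 in treated p53+/- lymphomas (SE 0.44, adjusted p = 0.00607). Treated p53-/- lymphomas had -1.10 (SE 0.48, adjusted p = 0.051), with mouse 663 at 39.5 CPM above every normal thymus and the next highest mouse of the group at 7.52 CPM. DESeq2 and voom called that group (-1.12 and -1.75, adjusted p = 0.0276 and 0.00153), as did edgeR with the p53+/- thymus of mouse 819 among the normal samples (-1.07, adjusted p = 0.0463). Among single-biopsy tumours alone the edgeR adjusted p was 0.0693 for untreated p53-/- and 0.0793 for treated p53+/- lymphomas.

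Tigit was called lower in both treated groups, close to the threshold. It was 0.93 to 6.74 CPM (median 2.78) in normal thymus, with medians of 1.23 CPM (0.405 to 13.2), 0.717 CPM (0.0915 to 6.64) and 1.33 CPM (0.218 to 2.66) in the lymphoma groups. Below every normal thymus were 3 of 10, 7 of 9 and 3 of 12 mice. It fell by 1.55 in treated p53-/- (SE 0.66, edgeR adjusted p = 0.0487) and by 1.44 in treated p53+/- lymphomas (SE 0.60, adjusted p = 0.0443). Each of these calls was lost in 6 of 14 alternatives, among them no filter on low counts (adjusted p = 0.0879 and 0.0779) and no sex covariate (adjusted p = 0.0839 and 0.0697). Without the mice of discordant sex the treated p53+/- call was lost (-1.16, adjusted p = 0.0757). Without normal mouse 387, which held 5.78 CPM, neither call remained (-1.22 with adjusted p = 0.15, and -1.13 with adjusted p = 0.149). Untreated p53-/- lymphomas had -0.06 (SE 0.66, adjusted p = 0.956), with mouse 202 at 13.2 CPM, the only lymphoma above every normal thymus. That mouse also had the highest sums of the natural killer list (432 CPM) and the regulatory T cell list (706 CPM) of all lymphomas. Of the latter sum 702 CPM was Ikzf2, while Foxp3 was 0.464 CPM, so the sum does not stand for those cells. Of the former 235 CPM was Il2rb, 90 CPM Klrd1 and 61.3 CPM Klrk1, with Ncr1 at 0 CPM. The part of these genes in its Tigit level was not tested.

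Pdcd1 was not called by edgeR in any group. Normal thymuses held 6.34 to 25.7 CPM (median 16.2) and the lymphoma medians were 13.2, 6.43 and 10 CPM. The log2 fold changes were 0.26, -0.92 and -0.24 (SE 0.48, 0.48 and 0.45, edgeR adjusted p = 0.692, 0.105 and 0.673). Voom over all biopsies called it lower in treated p53-/- lymphomas (-1.54, adjusted p = 0.0388). Above every normal thymus were untreated p53-/- mice 98, 202, 157 and 325 (34.9, 30.1, 28.9 and 26.6 CPM) and treated p53+/- mouse 884 (38.3 CPM). Another 10 of the 31 lymphomas lay below every normal thymus (3, 4 and 3 by group). Mouse 663, the one with high Lag3, was the lowest at 0.479 CPM.

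Ctla4 spread to both sides of the normal range and was not called in the edgeR fit of all 4 groups. Its normal range was 5.13 to 17.2 CPM (median 9.75), while untreated p53-/- lymphomas ran from 0.79 to 84.1 (median 5.49), treated p53-/- from 0.479 to 32.1 (median 3.89) and treated p53+/- from 0.714 to 70.8 (median 13.7). Of the 31 lymphomas 10 were above every normal thymus and 11 were below. The log2 fold changes were 0.63, 0.17 and 1.06 (SE 0.86, 0.78 and 0.76, edgeR adjusted p = 0.585, 0.871 and 0.245). An edgeR fit of treated p53+/- lymphomas and normal thymus alone called it higher (1.15, adjusted p = 0.0475). The highest mice were 157 (84.1 CPM) and 120 (66 CPM) among untreated p53-/- and 25 (70.8 CPM) among treated p53+/- lymphomas.

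**Figure D3:**
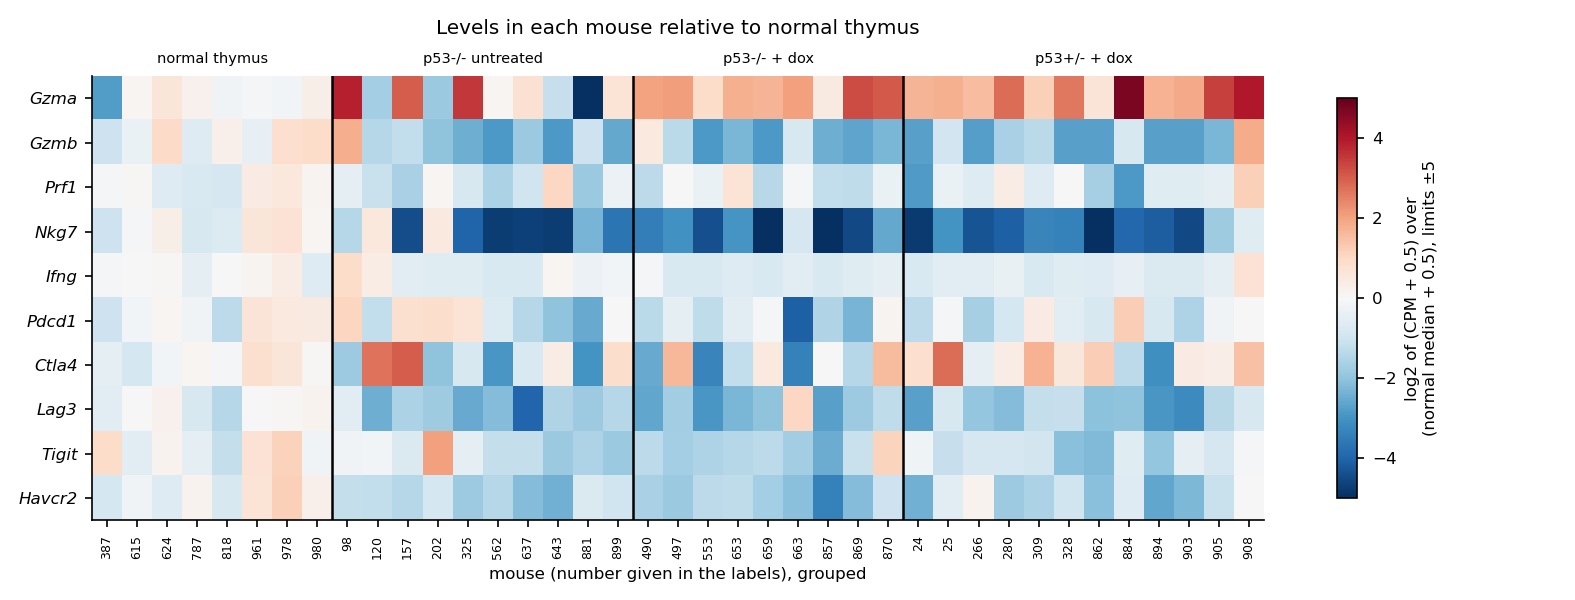
Log2 of CPM + 0.5 in each mouse over the normal median + 0.5 for the 10 genes (down the side), with mice by group along the x axis and colours limited to 5 in either direction. Of the 9 tested genes, mouse 908 has most above normal thymus (4) and none below, while 8 are below in mouse 881 and 7 in each of mice 490, 857 and 869.

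Mouse by mouse, the 31 lymphomas had a median of 1 of the 9 tested genes above every normal thymus and a median of 5 below. Of all 17843 genes a median of 26.4% was above and 28.8% below in the same mice. The numbers below ran from 0 (treated p53+/- mouse 908) to 8 (untreated p53-/- mouse 881). They were 7 in treated p53-/- mice 490, 857 and 869, where 27.3%, 39.8% and 29% of all genes were below. Ifng is left out of these numbers, since a count of 0 does not place it below normal thymus. Mouse 908 had Gzma, Gzmb, Prf1, Ifng and Ctla4 above every normal thymus, with natural killer markers summing to 237 CPM against 65.7 to 223 in normal thymus. Mouse 98 had Gzma, Gzmb, Ifng and Pdcd1 above, with natural killer markers at 103 CPM. The 7 genes below in mouse 857 included Tigit and Nkg7, both at 0.0915 CPM. Each of these is 1 count, under the limit of 3 counts in that mouse (0.275 CPM).

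The lymphoma groups were then compared with each other without normal thymus, in an edgeR fit over 16389 genes. This asks whether doxycycline (treated against untreated p53-/-) or p53 genotype (treated p53+/- against treated p53-/-) goes with a difference. Treated p53+/- and untreated p53-/- mice differ in both. Labelled sex differed as well: 9 of 10 untreated p53-/-, 4 of 9 treated p53-/- and 3 of 12 treated p53+/- mice were male. Among the p53+/+ normal mice 4 of 8 were male. Sex and group thus overlap in part, and the fit adjusts for labelled sex. No gene was called in any of the 3 comparisons (0% of all genes), and none of the 9 genes tested. In each comparison 1 of the 9 had an unadjusted p under 0.05, beside 11.7%, 5.27% and 6.34% of all genes, so 1 of 9 is near the background. Pdcd1 had a log2 difference of -1.21 between treated and untreated p53-/- lymphomas (SE 0.53, edgeR p = 0.0288, adjusted p = 0.378). Havcr2 had 0.82 between treated p53+/- and treated p53-/- lymphomas (SE 0.39, p = 0.0404, adjusted p = 0.941), and Tigit -1.47 between treated p53+/- and untreated p53-/- lymphomas (SE 0.72, p = 0.049, adjusted p = 0.776). DESeq2 called 76, 12 and 3 genes and voom 39, 1 and 1, none of them among the 9. For Gzma the differences were -0.10 (SE 0.74) for doxycycline, 0.76 (SE 0.69) for genotype and 0.66 (SE 0.70) for both, and for Nkg7 -1.28 (SE 0.96), 0.12 (SE 0.87) and -1.16 (SE 0.90). Some of these directions depended on the fit. For doxycycline Gzma was 1.51 with voom, 0.18 with no sex covariate and 0.21 with sex from expression, and for both it was -0.05 with single-biopsy tumours and 1.83 with voom. Nkg7 was -0.15 for doxycycline and 0.43 for both with voom, and -1.0 for genotype with single-biopsy tumours. A 2-fold difference lay within 2 standard errors of 0 for both genes.

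Biopsies of multifocal tumours showed how far these levels hold within a tumour. The SD of log2 CPM among biopsies, pooled within the 13 tumours, was set beside the SD among the tumour means. For 9 of the 10 genes the SD among tumours was the larger. Gzma had 0.67 within and 2.96 among tumours, or 1.91 among tumours without mouse 881. Lag3 was the exception, with 0.76 within and 0.70 among tumours, and without mouse 881 it had 0.72 and 0.73. Ctla4 varied most within tumours (SD 1.33, 1.96 among), followed by Nkg7 (1.04 and 2.24) and Gzmb (0.95 and 1.64). The biopsies of a tumour spanned 2 or more on the log2 scale in 8 of 13 tumours for Gzmb and for Ctla4, in 6 for Nkg7, in 3 each for Pdcd1, Lag3 and Tigit, in 2 for Prf1 and in 1 each for Gzma, Ifng and Havcr2. Counting error enters that span where counts are low: of 54 biopsies 50 held under 10 counts for Ifng, 46 for Gzmb, 22 for Tigit, 21 for Nkg7, 11 for Ctla4 and 3 to 6 for the other 5 genes. Biopsies of a tumour share their animal, and the edgeR comparisons sum them per mouse.

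**Figure D4:**
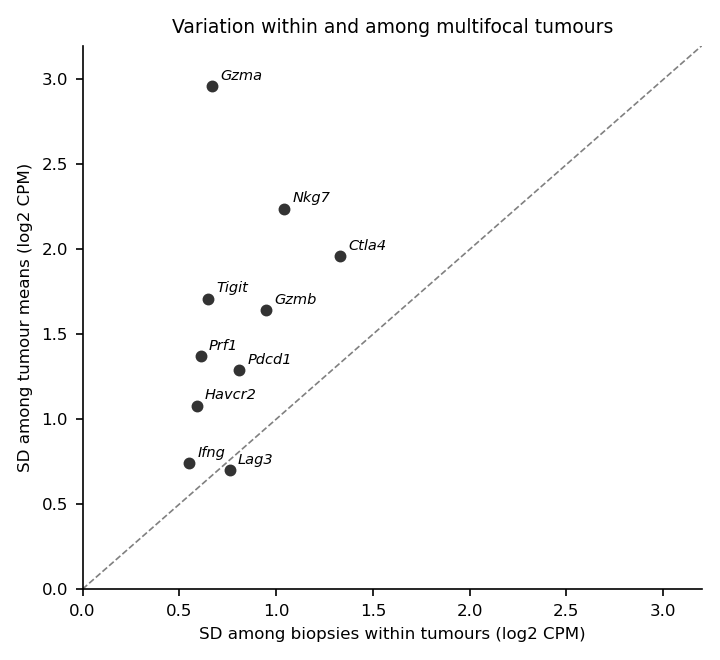
SD of log2 CPM among biopsies within multifocal tumours (x axis) against the SD among the 13 tumour means (y axis), 1 point per gene, with a dashed line of equality. Gzma lies furthest above the line (0.67 and 2.96), and Lag3 lies just below it (0.76 and 0.70). The place of Gzma rests on mouse 881, without which Gzma has 0.67 and 1.91 and Nkg7 1.02 and 2.31.

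In some tumours the biopsies held nearly the same level. In treated p53+/- mouse 903 Gzma was 150, 186, 163 and 165 CPM, Pdcd1 4.88, 5.39, 5.13 and 5.49 CPM and Ctla4 14.2, 15.5, 11.1 and 10.7 CPM. In untreated p53-/- mouse 202 Tigit was 11.3, 14.5, 13.3 and 13.3 CPM and Nkg7 30, 23.6, 31.4 and 36.7 CPM in its 4 biopsies. All 4 biopsies of mouse 202 were thus above the normal range of Tigit and within or just above that of Nkg7.

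In others 1 biopsy stood apart for several genes together. The marker sums given beside them are sums of lists and not numbers of cells. The natural killer list holds Fcer1g and Tyrobp, which myeloid cells also express, and the regulatory T cell sum is mostly Ikzf2 and Il2ra, with Foxp3 at 0 to 2.96 CPM in the biopsies described below. These genes were singled out after their values were seen. In treated p53-/- mouse 869, biopsy 3 held 22.7 CPM of Lag3 where the others held 1.44 to 1.73. The same biopsy had 19.9 CPM of Ctla4 (176 counts) against 0.0785 to 0.194 in the others (1 count in the lowest), and 12.3 CPM of Pdcd1 against 0.751 to 1.36. Its T cell markers summed to 3670 CPM, within the 3531 to 3909 of the other biopsies. Its regulatory T cell markers summed to 54.5 CPM against 21.5 to 42.1, its natural killer markers to 93.6 CPM against 20.5 to 33.4 (40.5 CPM against 1.81 to 2.89 without Fcer1g and Tyrobp), its macrophage markers to 1173 CPM against 368 to 700 and its B cell markers to 24.9 CPM against 0.866 to 1.88. The part of those cells in the receptor levels was not tested.

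Treated p53+/- mouse 862 had 224 CPM of Gzma in biopsy 9 and 24.6 to 54.3 in the other 4, the widest range of Gzma in any tumour (3.19 on the log2 scale). Ctla4 was 77.1 CPM in that biopsy and 6.01 to 23.8 in the others. The biopsy also had the highest marker sums for natural killer cells (129 CPM against 32.8 to 71.9), regulatory T cells (317 CPM against 43.8 to 83), macrophages (1402 CPM against 441 to 841) and T cells (3757 CPM against 3281 to 3519). In its regulatory T cell sum Il2ra was 212 CPM and Foxp3 0.148 CPM, which is under the limit of 3 counts in that library (0.221 CPM). The part of those cells in its Gzma and Ctla4 was not tested. In treated p53-/- mouse 870, biopsy 1 was highest for Gzma (800 CPM against 233 to 290), Pdcd1 (35.3 CPM against 9.51 to 18.1) and Tigit (16 CPM against 2.9 to 4.47), while biopsy 5 was highest for Ctla4 (55.4 CPM against 11.6 to 34) and Lag3 (13.9 CPM against 2.44 to 6.27). The genes thus peaked in different biopsies of that tumour. Biopsy 1 also had the highest regulatory T cell markers (133 CPM against at most 121) and the lowest T cell markers (3071 CPM against 3601 to 3710). Biopsy 5 had the highest natural killer (146 CPM against 69.2 to 109), macrophage (1407 CPM against 671 to 959) and B cell markers (8.6 CPM against 2.8 to 5.85). Without Fcer1g and Tyrobp the natural killer markers of biopsy 5 were 28.1 CPM, within the 9.35 to 38.2 of the others. The part of these cells was not tested.

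In treated p53+/- mouse 884 Gzma was 814 to 1547 CPM, and Pdcd1 was 72.4 CPM in biopsy 2 against 15 to 16.9 in the other 3. Biopsy 2 also had the highest sums of T cell markers (2853 CPM against 1412 to 1944), regulatory T cell markers (91 CPM against 9.96 to 37.7) and B cell markers (103 CPM against 20.5 to 33.1), whose part was not tested. In mouse 908, with high Gzmb, the 4 biopsies held 4.09, 25.2, 15.6 and 6.4 CPM, and biopsy 5 was also highest for Prf1 (21.5 CPM) and Ctla4 (61.9 CPM). Biopsy 5 also had the highest regulatory T cell markers (501 CPM against 190 to 408) and the lowest macrophage markers (1017 CPM against 1065 to 1631). Its natural killer markers (229 CPM) lay within the 194 to 269 of the others, but without Fcer1g and Tyrobp they were the highest (156 CPM against 107 to 149). The part of these cells was not tested. In mouse 881, which had the low T cell markers, all 4 biopsies were under 0.9 CPM for Gzma, and biopsy 7 was highest for Lag3 (12.3 CPM against 1.11 to 4.19). That biopsy had the lowest B cell markers of the tumour (1336 CPM against 1754 to 2334) and the highest T cell (214 CPM against 118 to 171), regulatory T cell (38.9 CPM against 1.57 to 11.2), natural killer (90.1 CPM against 56.7 to 73.6) and macrophage markers (1153 CPM against 651 to 959). Their part in its Lag3 was not tested.

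**Figure D5:**
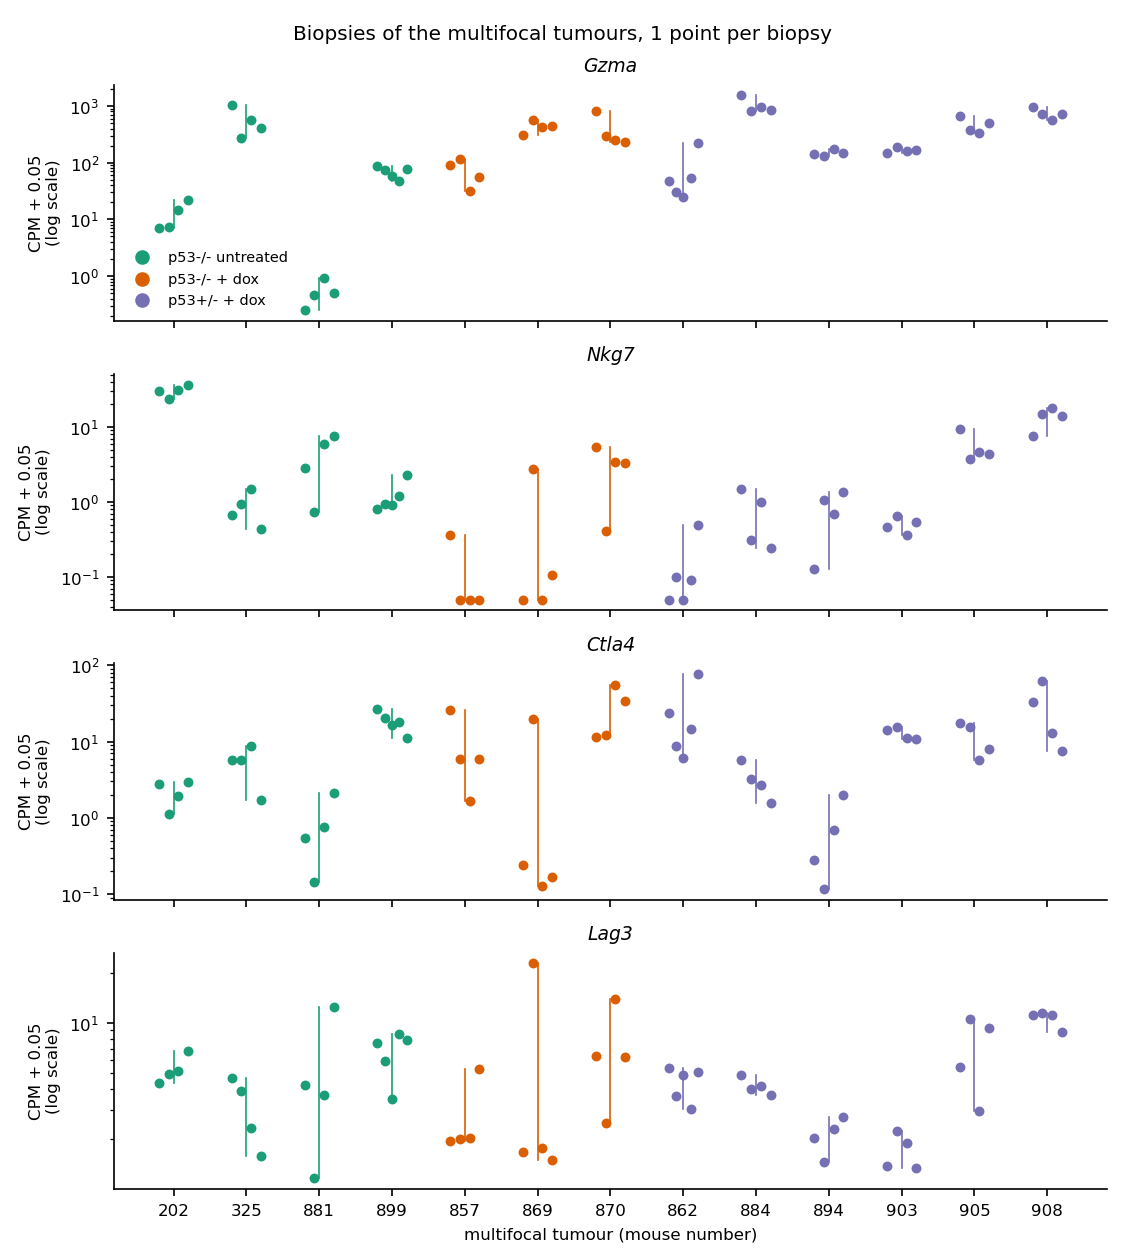
CPM + 0.05 (log scale) of Gzma, Nkg7, Ctla4 and Lag3 in each biopsy of the 13 multifocal tumours (x axis), coloured by group, with a line from the lowest to the highest biopsy. Gzma has its widest log2 span in mouse 862 (24.6 to 224 CPM), while Ctla4 and Lag3 in mouse 869 span 0.0785 to 19.9 and 1.44 to 22.7 CPM.

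The genes that followed each member most closely over the 31 lymphoma mice were found by Pearson's r of log2 CPM among the 16389 genes tested. These are descriptions, over mice that also differ in depth and tissue makeup. Gzmb was closest to the chemokine genes Cxcl9, Cxcl10 and Ccl5 (r = 0.75, 0.71 and 0.70), and Nkg7 to Cxcl10, Il18rap and Tgtp2 (0.81, 0.80 and 0.80). Both lists included Cxcl10, an interferon-induced chemokine. Gzma was closest to Cd247, the zeta chain of the T cell receptor complex (0.84), Idh2 (0.82) and Syt13 (0.77). Without mouse 881 these 3 values were all 0.67 and the genes ranked 12, 14 and 13. For the other genes below, Ms4a6b (Pdcd1) then ranked 7 and Ly6c2 (Tigit) 8, and the rest ranked from 1 to 4. Prf1 was closest to Sidt1, Ablim1 and Gramd3 (0.80, 0.69 and 0.67).

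Of the receptors, Pdcd1 was closest to Rassf5, Emc9 and Ms4a6b (0.75, 0.72 and 0.70), Ctla4 to Rfx8, Sgip1 and Gm43136 (0.68, 0.67 and 0.62) and Lag3 to Rgmb, Gm7609 and Tgfbi (0.65, 0.64 and 0.64). Tigit was closest to Jak1, Tnfrsf1b and Ly6c2 (0.76, 0.75 and 0.72), and Havcr2 to Trim7, Gsap and Atp6v0a1 (0.84, 0.81 and 0.81). No gene was among the first 3 of more than 1 receptor.

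Genes that act with the members were counted in the same fit against normal thymus, and the 3 values of each gene or list below are for untreated p53-/-, then treated p53-/-, then treated p53+/- tumours. Each count below is to be read beside the shares of all genes called in that fit, 23.2%, 25.4% and 25.6% upward and 17.5%, 26.6% and 25.3% downward, and with lists this short 1 or 2 calls are near those shares. Of 8 other granule genes tested, 0, 0 and 0 rose and 1, 4 and 2 fell (median log2 fold change -0.04, -1.33 and -0.52). Serpinb9, the inhibitor of granzyme B, fell in each group, with log2 fold changes of -1.89, -1.47 and -1.65 (SE 0.38, 0.36 and 0.33, edgeR adjusted p = 0.000142, 0.000966 and 9.04e-05). Gzmk, another granzyme gene, was not called, with -0.71, -2.29 and -1.62 (adjusted p = 0.634, 0.111 and 0.209). Of 9 effector transcription factors 2, 3 and 2 rose and 0, 3 and 1 fell. Tox2 rose by 2.50, 3.11 and 3.34 (adjusted p = 0.00435, 0.000434 and 0.000182), and Runx3, a factor of CD8 and cytotoxic T cells, by 2.23, 1.37 and 1.98 (adjusted p = 0.000264, 0.0104 and 0.000332).

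Of 9 genes of the interferon gamma receptor and its signalling none rose and 4, 6 and 4 fell (medians -0.57, -1.07 and -0.71), where 17.5%, 26.6% and 25.3% of all genes fell. Cxcl10 fell in each group, with log2 fold changes of -1.94, -1.97 and -1.94 (edgeR adjusted p = 0.0193, 0.0121 and 0.00729). Ciita, the activator of MHC class II genes, fell likewise (-1.55, -2.80 and -2.34, edgeR adjusted p = 0.0468, 0.000347 and 0.00072).

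Among 8 checkpoint ligand genes tested, 1, 0 and 1 rose and 4, 4 and 4 fell (medians -1.01, -1.03 and -1.29), beside the same shares of all genes. Cd80 and Cd86, the ligands of CTLA-4 and CD28, fell in each group: Cd80 had log2 fold changes of -1.79, -2.23 and -1.98 (edgeR adjusted p = 0.00641, 0.000681 and 0.000806) and Cd86 -1.86, -1.82 and -1.5 (adjusted p = 1.8e-05, 1.34e-05 and 5.29e-05). Of 5 other inhibitory receptors 1, 1 and 1 rose and 1, 2 and 3 fell. Cd160 was the 1 that rose, by 1.56, 1.85 and 2.39 (adjusted p = 0.0456, 0.0128 and 0.00148), and Btla, an inhibitory receptor of B and T cells, fell in the treated groups (-2.09 and -1.51, adjusted p = 0.00792 and 0.0331). Of 7 costimulatory receptors none rose and 2, 2 and 1 fell, and Tnfrsf4 (OX40) had -2.28, -1.70 and -1.35 (adjusted p = 1.8e-06, 5.6e-05 and 0.000325). Tnfrsf18 (GITR) had -1.19, -1.29 and -0.58 and was not called in treated p53+/- lymphomas (adjusted p = 0.0438, 0.0224 and 0.3).

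Markers of other cells moved in the same fit. Of 5 dendritic cell markers 4 fell in each group, and their sum was 26.6 to 90.7 CPM in normal thymus and 2.35 to 53.8 CPM in the lymphomas. Of 6 natural killer markers tested 0, 3 and 2 fell. The sum of all 9 was 65.7 to 223 CPM in normal thymus and 38.1 to 432 CPM in the lymphomas, with a median of 0 CPM for Ncr1 in each lymphoma group and medians of 0.371, 0.173 and 0.399 CPM for Klrb1c against 4.79 in normal thymus. Of 6 macrophage markers 0, 1 and 0 fell, with sums of 366 to 1861 CPM in normal thymus and 418 to 1901 CPM in the lymphomas. Of 4 regulatory T cell markers 1, 0 and 0 rose and 1, 2 and 2 fell. Foxp3, which defines these cells, fell in each group (-3.23, -3.40 and -2.93, edgeR adjusted p = 5.7e-07, 1.72e-07 and 2.04e-07). Ikzf2 was the 1 that rose, in untreated p53-/- lymphomas (1.93, adjusted p = 0.0162), and Ikzf4 fell in the treated groups (-2.15 and -1.47, adjusted p = 0.000219 and 0.00385). The 4 markers together summed to 38.5 to 142 CPM in normal thymus and 11.2 to 706 CPM in the lymphomas. Of 8 T cell markers 3, 1 and 2 fell, and Cd3d and Cd3e were not called. Cd4 fell in each group (-2.35, -2.49 and -2.14, edgeR adjusted p = 0.00023, 0.000119 and 0.000246). Cd8b1 fell in untreated p53-/- and treated p53+/- lymphomas (-1.87 and -1.70, edgeR adjusted p = 0.0349 and 0.0325). Of 6 double-positive thymocyte markers 0, 1 and 1 rose and 3, 1 and 1 fell, and of 4 gamma delta T cell markers 1, 0 and 1 rose and 0, 2 and 0 fell. B cell markers fell in the treated groups (0, 4 and 4 of 4), thymic epithelium markers in each (3, 4 and 3 of 5) and fat markers in each (4 of 4), while 1, 0 and 0 of 4 stroma markers rose. Prss16 of thymic epithelium had -8.74, -9.66 and -10.05 (edgeR adjusted p = 9.81e-12, 4.13e-12 and 5.5e-14), and Ucp1 of brown fat -10.25, -8.85 and -9.49 (adjusted p = 1.54e-09, 6.68e-09 and 2.22e-10). The part of these cell types in the lower Nkg7, Lag3, Tigit and Havcr2 was not tested.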

How the data were processed

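The authors deposited 1 table of expected counts (RSEM estimates) for 51826 genes and 81 libraries, per the file headers. The submitters' processing notes name CASAVA 1.8, fastp, STAR 2.7.2b, RSEM 1.1.17 and mm10. Their settings, and whether strand was used, are not given in the sources used here. Of the values 14.25% were not whole, and all were rounded. Biopsies were summed per mouse.

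Fits used edgeR 4.0.16 in R 4.3.3 (TMM, filterByExpr, robust quasi-likelihood, labelled sex), with Benjamini-Hochberg adjustment over all genes tested. The code was tested on simulated data. Log2 CPM used a prior count of 2. DESeq2 1.42.0, limma 3.58.1 voom and other settings were alternatives. The p53+/- normal thymus entered 1 alternative. The labels name separate mice, so p-values measure the spread between mice. Coordinates are from GENCODE M21.

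The genes and lists were chosen with earlier results of these data known. Named were all 10 genes and, per pathway list, the 2 with the largest mean change against normal thymus. Markers were named only from the 2 with the largest mean change or the first 2 of their list, and not all of these were named. The 3 genes most like each were named where its mean over the lymphomas was at least 0.5 CPM. Of the list symbols 2 had no single row.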

Additional observations from a re-analysis of the deposited data

Results flagged for a closer look

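Each of the 10 genes was checked for a mouse far from the rest of its group in normal thymus, untreated p53-/- and treated p53-/- lymphomas, on log2 CPM. Of 30 gene and group combinations 6 had such a mouse. The combinations share mice, so this number was not compared with a rate by chance. The treated p53+/- group was not part of this check. Gzma was 5.98 CPM in normal mouse 387, against 39 to 67.9 CPM in the other 7 normal thymuses. Among untreated p53-/- lymphomas, Lag3 was 0.735 CPM in mouse 637 (2.88 to 12.9 CPM in the others) and Tigit was 13.2 CPM in mouse 202 (0.405 to 2.52 CPM in the others). Among treated p53-/- lymphomas, mouse 663 was far from the others for both Pdcd1, at 0.479 CPM (others 2.87 to 17.7), and Lag3, at 39.5 CPM (others 2.11 to 7.52). Havcr2 was 0.458 CPM in mouse 857 of that group (others 1.71 to 4.27), whose 4 libraries include the 2 shallowest of the study. The p53+/- normal thymus, mouse 819, entered no comparison above other than 1 alternative. Its Ifng was 0.731 CPM (13 counts), where the p53+/+ thymuses held 0.0516 to 0.618 CPM (up to 11 counts), a gap too small to be told from counting error at this depth, and its other 9 genes were not above their range.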

How the results depend on the processing

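Of the alternatives for single genes against normal thymus, 338 kept direction and call, 12 gained a call, 17 lost one and 11 changed direction. Among lymphoma groups 273 kept both and 22 changed direction. No paired analysis was possible because the labels number mice and no number is shared by groups. The members called ranged from 2 to 4, 3 to 7 and 4 to 6 against normal thymus, and voom called 7 in treated p53-/- lymphomas where edgeR called 4. The share of all genes called ranged from 20.5% to 44%, 27.9% to 58.5% and 27.5% to 53.9% over the same settings. Among lymphoma groups no member was called under any setting. The values that changed direction were not called in either fit, and the cause was not tested.

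Against normal thymus, untreated p53-/- lymphomas gave Prf1 0.06 with single-biopsy tumours and 0.10 with only the groups compared, Pdcd1 -0.24 and Ctla4 -1.26 with voom, and Tigit 0.15 without mouse 387, 0.05 without mouse 881 and 0.26 without both. Leaving out mouse 881, or both mice, was chosen after seeing the data. Treated p53-/- lymphomas gave Ctla4 -0.25 with sex from expression, -0.26 without mice of discordant sex, -1.60 with voom and -0.30 with single-biopsy tumours.

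For treated against untreated p53-/- lymphomas, no sex covariate gave Gzma 0.18 and Prf1 -0.20, sex from expression 0.21 and -0.04, voom gave Gzma 1.51 and Gzmb 0.60, and Prf1 was -0.09 with single-biopsy tumours and -0.10 with only the groups compared. For treated p53+/- against treated p53-/- lymphomas, single-biopsy tumours gave Gzmb -1.13, Prf1 -0.10 and Nkg7 -1.0, and voom gave Prf1 -0.01 and Lag3 0.29. For treated p53+/- against untreated p53-/- lymphomas, single-biopsy tumours gave Gzma -0.05 and Prf1 -0.19, no sex covariate Prf1 -0.11 and Ctla4 -0.02, and voom Gzmb 0.98 and Nkg7 0.43. Gzmb was 0.03 with no filter, 0.01 with sex from expression and 0.12 without mice of discordant sex. Low counts limit Gzmb and Ifng most.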

Other observations

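The p53+/- normal thymus of mouse 819 held 54.1 CPM of Gzma, 27 CPM of Nkg7, 17.7 CPM of Lag3 and 16.6 CPM of Havcr2, each within the range of the p53+/+ thymuses. It held 6.35 CPM of Gzmb, 8.04 CPM of Prf1, 21.5 CPM of Pdcd1, 11.7 CPM of Ctla4 and 5.17 CPM of Tigit, also within range. With 1 mouse no test was made.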
